A study of Mus musculus with 6 samples.

Results

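Whole testes of mice were examined for the RefSeq messenger RNA (mRNA) that their deposited transcript tables hold. The members were chosen from the measured values themselves: in testes replicates 1 and 2, the estimated counts of all RefSeq mRNA transcripts of a gene were summed, and a gene was kept when its sum was 20 or more in both samples. Of 13907 RefSeq genes listed in either testes sample, 1799 were kept (12.9%), and 14455 RefSeq genes were listed in any of the 6 samples of the series. The series profiled long non-coding RNA (lncRNA) in 4 samples of mature sperm and these 2 testes samples, and no sperm value is used here. The mice were males of the inbred strain C57BL/6 in the labels and C57BL/6J in the study's methods, with no treatment, transgene or deleted gene named. They were 3 to 5 months old per the labels, while the methods give an age range in weeks that begins and ends earlier. The testes came from the mice that gave the pooled sperm samples, and how many mice stand behind each testes sample is not given in the sources used here. RNA came from 10 mg of testes tissue, was depleted of ribosomal RNA, and was sequenced as strand-specific paired-end libraries. The study calls the testes samples biological replicates. With 1 group of 2 samples there was no comparison between conditions to test, and every value below is a description with its spread between the samples.

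The testis is made of seminiferous tubules, in which spermatogonia enter meiosis as spermatocytes and leave it as round spermatids, and these condense and elongate into sperm. Elongating spermatids swap histones first for transition proteins and then for protamines. The messengers for both are made and stored long before the proteins are used. Sertoli cells nurse the germ cells inside the tubule, peritubular myoid cells wrap it, and Leydig cells between the tubules make testosterone. In whole tissue, fewer cells of a type and less RNA per cell cannot be told apart.

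Promoter sequences are shown for 4 of the genes that the values below return to: the protamine genes Prm1 and Prm2, which pack sperm DNA, and a pair of genes that start beside each other on opposite strands. The pair is Ndufa13, a subunit of mitochondrial complex I and among the most abundant genes, and Tssk6, a testis-specific serine kinase of spermatids. Tssk6 was also kept, with far fewer counts. Each window is from RefSeq on GRCm38.p6, and runs from 250 bases before the annotated start to 50 after it, written 5′ to 3′ on the strand of the gene. Capitals mark the 50 bases after the start, except in Prm2, where they mark TTTATA, the reverse complement of TATAAA, 31 bases before the start.
Prm1, chr16:10796774-10797073, minus strand: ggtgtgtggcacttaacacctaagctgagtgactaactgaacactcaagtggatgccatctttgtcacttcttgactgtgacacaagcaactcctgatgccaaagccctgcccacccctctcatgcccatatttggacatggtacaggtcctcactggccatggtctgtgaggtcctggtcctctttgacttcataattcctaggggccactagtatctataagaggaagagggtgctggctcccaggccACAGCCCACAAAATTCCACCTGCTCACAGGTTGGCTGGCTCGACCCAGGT
Prm2, chr16:10792056-10792355, minus strand: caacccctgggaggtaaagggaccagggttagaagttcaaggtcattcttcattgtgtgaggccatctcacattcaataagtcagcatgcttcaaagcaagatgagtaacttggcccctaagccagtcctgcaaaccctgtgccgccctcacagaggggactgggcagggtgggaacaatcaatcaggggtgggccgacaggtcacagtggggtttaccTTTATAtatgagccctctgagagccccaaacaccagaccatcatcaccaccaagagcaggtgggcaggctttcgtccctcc
Ndufa13, chr8:69901971-69902270, minus strand: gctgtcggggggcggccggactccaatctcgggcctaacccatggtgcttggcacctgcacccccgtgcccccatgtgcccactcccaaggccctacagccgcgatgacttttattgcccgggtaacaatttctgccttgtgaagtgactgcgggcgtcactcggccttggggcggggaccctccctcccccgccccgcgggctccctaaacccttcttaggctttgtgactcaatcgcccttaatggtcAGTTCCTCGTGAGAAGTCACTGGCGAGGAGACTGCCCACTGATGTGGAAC
Tssk6, chr8:69901934-69902233, plus strand: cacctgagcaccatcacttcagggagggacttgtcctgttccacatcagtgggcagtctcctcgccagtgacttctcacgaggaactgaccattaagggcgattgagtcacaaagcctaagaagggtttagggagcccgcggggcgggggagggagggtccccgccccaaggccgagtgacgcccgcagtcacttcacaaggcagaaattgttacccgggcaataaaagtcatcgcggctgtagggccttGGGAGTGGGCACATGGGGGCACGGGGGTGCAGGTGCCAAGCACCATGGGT

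The windows of Ndufa13 and Tssk6 share 263 bases, read in opposite directions, so each of these annotated starts lies inside the window of the other. TGACGTCA, the full cyclic AMP response element, was found on neither strand of these 4 windows, which says only that these letters are not there. Across the promoter table, TGACGTCA on either strand was held by 2.39% of 1840 promoters of kept genes, 2.67% of 13859 promoters of listed genes and 1.79% of all 32851. TATAAA on either strand was held by 7.45%, 8.69% and 13.6% of the same sets. The median number of CG pairs in a window was 21 for kept genes, 18 for listed genes and 7 for all promoters. Kept genes thus had promoters with TGACGTCA about as often as listed genes, and CG pairs more often than the table as a whole.

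The RefSeq mRNA counts were a small part of each library. They came to 322625 of 2866856 estimated counts in replicate 1 (11.3%) and 314273 of 2606086 in replicate 2 (12.1%), while NONCODE lncRNA held 78.6% and 78.0%. The median listed RefSeq gene had 5 counts in replicate 1 and 4 in replicate 2. The number of genes with 20 or more counts was 2461 in replicate 1 and 2103 in replicate 2. The kept genes held 78.2% and 82.8% of the RefSeq mRNA counts, with a median of 56 and 51 counts and a median of 7.22 and 7.08 FPKM (fragments corrected for transcript length and sequencing depth). A gene absent from both tables can still account for up to 9.30 and 9.55 ppm of the RefSeq mRNA counts. This is the limit that counting error alone sets for a count of 0 (3 counts). The genes just inside the minimum were 4932438H23Rik with 51 and 20 counts, Abt1 with 55.8 and 20, and Adam3 with 20 and 21. Just outside it lay Tagap with 26.3 and 19.98, Rnf24 with 69.7 and 19.93, and Dclk1 with 46.9 and 19.87.

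A few genes held much of the mRNA. The 10 most abundant genes by count held 11.7% of the RefSeq mRNA counts in replicate 1 (Wilson 95% interval 11.6 to 11.8) and 13.3% in replicate 2 (13.2 to 13.5), a mean of 12.5% ± 1.18 (SD, n = 2). The 25 most abundant held 20.1% and 22.5%, and the 100 most abundant 35.6% and 40.7%. The other end of the range was long: 279 genes in replicate 1 and 191 in replicate 2 were needed to reach 50% of the counts, and 3633 and 3019 to reach 90%. Each of these shares was larger in replicate 2.

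The most abundant gene by count was Ccdc189, a coiled-coil protein gene on chromosome 7 (GRCm38.p6, 127582383 to 127588666, minus strand), with 7992 and 7161 counts. It held 2.38% ± 0.140 (SD, n = 2) of the RefSeq mRNA counts. Acat3, an acetyl-CoA acetyltransferase gene, followed with 6001 and 6985 counts, a share of 2.04% ± 0.256. Both samples put these 2 genes ahead of every other, in the same order. Next came Cdip1, which encodes a p53-responsive cell death factor, with 4230 and 4643 counts. The predicted gene Gm5148 had 4069 and 4660, and the zinc finger gene Zfp385c had 3216 and 4552. The other genes of the first 10 were Abi3, an adaptor of actin regulation (3361 and 3076 counts), Ndufa13 (2447 and 2817), Ranbp6, of the importin family (2166 and 2692), Mrps25, a protein of the mitochondrial ribosome (2182 and 2660), and B3gat2, a glucuronyltransferase (2003 and 2689). None of these 10 was among the marker or programme genes listed for the cell types of the testis.

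Ranks 11 to 25 were held by Rasgrp4, Necab1, Fam160a2, Gm3435, Tmem151b, Elfn2, 1110051M20Rik, Ddx54, Eno1, Kcnk10, Ahsa2, Cldn3, Dnajc1, Mmp28 and Prnp. Their mean shares ran from 0.726% for Rasgrp4, a Ras exchange factor, to 0.448% for Prnp, the prion protein gene. Several changed places between the samples. Necab1, a calcium-binding protein gene, had 1595 counts in replicate 1 and 2955 in replicate 2, and Kcnk10, a potassium channel gene, had 2300 and 1169. Eno1, the glycolytic enolase, stood at rank 19 with 1388 and 2087 counts, a share of 0.547% ± 0.165 (SD, n = 2). It was the only member of the marker and programme lists within the first 25.

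**Figure D1:**
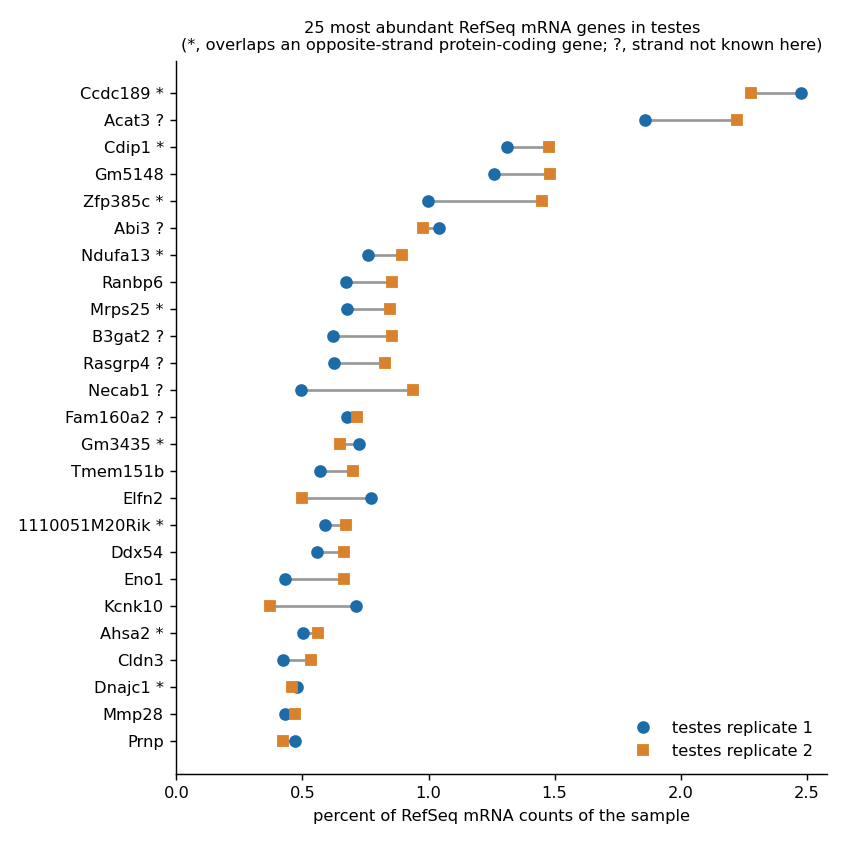
Share of the RefSeq mRNA counts (percent, horizontal axis) held by each of the 25 most abundant genes in testes replicate 1 (circles) and replicate 2 (squares), with a line joining the pair. Ccdc189 and Acat3 lie near 2%, and the rest fall from 1.39% for Cdip1 to 0.448% for Prnp; an asterisk marks genes overlapped by a protein-coding gene on the opposite strand.

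Per length, 5 of the first 10 genes by count stayed among the first 10. By mean FPKM the first 10 genes were Gm5148 (1211 and 1532 FPKM), Acat3 (1072 and 1376), Ccdc189 (1115 and 1101), Ndufa13 (708 and 899.8), Cldn3 (391 and 530), Kcnmb4 (385 and 476), Cdip1 (381 and 461), Gm3435 (412 and 397), Cd72 (333 and 425) and Eno1 (279 and 463). The range of Acat3 overlapped those of Gm5148 and Ccdc189, while Gm5148 lay above Ccdc189 in both samples. Ndufa13 lay below all of them in both samples. Cldn3 is a tight junction protein, Kcnmb4 a subunit of a calcium-activated potassium channel and Cd72 a surface protein best known from B cells. Prm2 was at rank 17 by FPKM and Prm1 at rank 46, against ranks 123 and 411 by count, both transcripts being short.

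The position of the genes, which the choice of members did not use, differed between kept and other genes. This measure was chosen after the values were seen. Strand was known from RefSeq for 11030 of the 13907 listed genes. Overlap was taken between the full annotated bounds of genes, introns included, so transcripts of overlapping genes need not share bases. A protein-coding gene on the opposite strand overlapped 473 of 1433 kept genes (33.0%) and 1351 of 9597 listed genes that were not kept (14.1%). Among the 100 most abundant genes it was 44 of 78 (56.4%), and among the 250 most abundant 97 of 198 (49.0%). Kept genes outside the 250 most abundant still stood at 376 of 1235 (30.4%). Overlap with a protein-coding gene on the same strand was as frequent in kept (2.37%) as in other listed genes (2.18%). Gene span was alike, with a median of 21.3 kb in kept genes and 21.2 kb in the others. In 4 equal classes of span, from short to long, the share with an opposite-strand partner was 34.7%, 35.7%, 33.5% and 28.0% for kept genes, against 13.5%, 14.2%, 14.8% and 13.7% for the others.

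**Figure D2:**
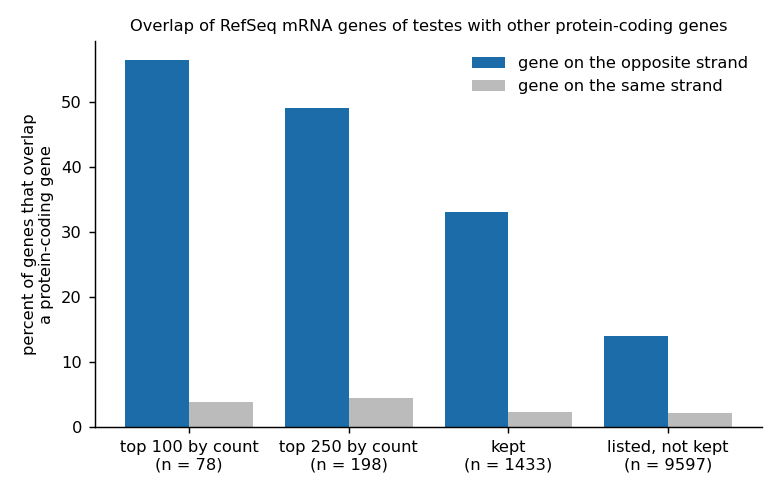
Percent of genes (vertical axis) overlapped by a protein-coding gene on the opposite strand (blue) or on the same strand (grey), for the 100 and 250 most abundant genes, all kept genes and listed genes not kept, with the number of genes of known strand under each pair of bars. The opposite-strand share falls from 56.4% to 14.1% across the sets, and the same-strand share stays under 5%.

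Among the 50 most abundant genes, 23 of 38 with known strand had such a partner. Their 26 partners had a median of 27.3 and 34.8 counts, and 15 of the 26 were kept themselves. The median listed gene had 5 and 4 counts, and 12.9% of all listed genes were kept. Ccdc189 overlapped 925 bases of Phkg2, the testis and liver catalytic subunit of phosphorylase kinase, which had 61 and 102 counts (13.4 and 24.8 FPKM). Ndufa13 and Tssk6 share 375 bases on chromosome 8 within their full annotated bounds. This overlap comes from the outer bound of Ndufa13, which lies beyond its start printed above. Transcripts from the printed starts of Ndufa13 and Tssk6 run away from each other and do not overlap. Tssk6 had 24 and 29 counts (6.48 and 8.64 FPKM). Cd72 overlapped 352 bases of Tesk1, a kinase of spermatogenic cells, and Tesk1 had 201 and 307 counts (19.5 and 32.8 FPKM). Cdip1 lay over Hmox2, a heme oxygenase, with 22 and 36 counts. Zfp385c lay over Nkiras2 with 7 and 2, and Mrps25 over the nuclear receptor gene Nr2c2 with 27.9 and 16.7. The highest of these partners was Rpgrip1, a gene of the photoreceptor cilium, with 655 and 693 counts opposite Supt16, a subunit of the FACT histone chaperone, with 1274 and 1323. The first gene of each pair was picked for its abundance, so that it exceeds its partner is no finding. Neither whether the authors' counting used the strand of the fragments nor in which orientation is given in the sources used here. Its part in these counts, and in those of the marker genes below, was not tested. Without strand, reads of a gene and its opposite-strand partner cannot be told apart.

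Marker genes of the tissue were present, but low against the genes above. The germ-cell lists (spermatogonia, spermatocytes, round and elongating spermatids) held 111 genes, of which 100 were listed and 22 kept. Together they held 0.841% (Wilson 95% interval 0.810 to 0.873) and 0.859% (0.827 to 0.892) of the RefSeq mRNA counts. The somatic lists (Sertoli, Leydig, peritubular myoid, endothelial, macrophage) held 74 genes, of which 59 were listed and 4 kept, with 0.192% and 0.168%. Over all listed genes, 12.9% were kept. Summed as counts per kilobase, the germ-cell lists stood 9.18 and 9.72 times above the somatic lists, a mean of 9.45 ± 0.383 (SD, n = 2). The ratio depended on how it was formed, at 4.75 for counts without length and 15.3 for kept genes only. The lists differ in size and in the abundance of the genes they name, so the ratio is no ratio of cells.

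Spermatogonial and spermatocyte genes had the lowest shares of the germ-cell lists, 0.0941% ± 0.0163 and 0.0951% ± 0.0264 (SD, n = 2) of the RefSeq mRNA counts, and did not differ beyond their spread. Of 16 spermatogonial genes, 11 were listed and 1 was kept (9.09% of those listed, beside 12.9% of all listed genes). It was Gfra1, the receptor of the niche factor GDNF, with 242 and 308 counts (19.2 and 26.9 FPKM). Gfra1 alone held a mean of 0.0865% of the RefSeq mRNA counts, nearly all of the share of its list. The likeness of the spermatogonial and spermatocyte shares thus rests on this gene. Nanos3 had 8.56 and 4 counts, Dazl 2 and 7, and Stra8, which starts meiosis, 3 and 2. Zbtb16, Kit, Sohlh2, Sall4 and Lin28a were absent from both tables. Apart from Gfra1, then, the defining genes of stem and differentiating spermatogonia were at or near the limit of counting.

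Of 35 spermatocyte genes, 31 were listed and 3 kept (9.68% of those listed, beside 12.9% of all listed genes). Ldhc, the germ-cell lactate dehydrogenase, had 43 and 104 counts, Hspa2, a chaperone of meiosis, had 49 and 66, and Mael, a piRNA pathway protein, had 20 and 36. Each was higher in replicate 2. None of the 26 genes of the synaptonemal complex and recombination was kept, and 18 were listed. Sycp1 had 11 and 13 counts, Smc1b 11 and 14, and Stag3 12 and 8. Of the 20 genes of the piRNA pathway and germ granule, all were listed and 3 (15%) were kept. They were Tdrd6 (105 and 111 counts), Henmt1, which methylates piRNA ends (44 and 43), and Mael.

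Of 26 round spermatid genes, 24 were listed and 3 kept (12.5% of those listed, beside 12.9% of all listed genes). Tssk1, a spermatid kinase, had 253 and 153 counts, a level of 52.2 ± 14.7 FPKM (SD, n = 2). Tcp11, of the t-complex, had 190 and 197 counts (40.0 ± 3.94 FPKM), and Tssk2 had 27 and 24. Below the minimum, Crem had 5 and 4 counts, and Acr and Izumo1 had 0 and 3 each. Spaca9 and Catsper4 were absent from both tables. Of 26 acrosome and sperm-egg genes, which are made at this stage, 25 were listed and 4 kept (16% of those listed). They were Adam1a (172 and 148 counts), Adam1b (101 and 94.7), Acrbp (57 and 87) and Adam3. Spam1 had 1 and 0 counts, and Tmem95 was absent.

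The genes of elongating and condensing spermatids had the largest share kept among the cell type lists. All 34 were listed and 15 (44.1%) were kept, against 12.9% of all listed genes. They held 0.495% and 0.477% of the RefSeq mRNA counts, a mean of 0.486% ± 0.0128 (SD, n = 2). Prm2 had 465 counts in replicate 1 and 220 in replicate 2 (281 and 147 FPKM). Prm1 had 123 and 116 counts (122 and 128 FPKM). Prm2 was thus the higher of the protamines in both samples, and it was the one that moved between them. The transition protein genes were close to each other, Tnp1 at 98 and 86 counts (90.3 and 88.1 FPKM) and Tnp2 at 95 and 127 (65.9 and 97.7 FPKM). Prm3 had 28.5 and 21.9 counts (27.6 and 23.7 FPKM). Odf2, a protein of the outer dense fibres, had 236 and 338 counts (36.3 and 58.0 FPKM). The others kept were Txndc2, H1fnt, Hspa1l, Actl7b, Dnajb3, Akap3, Oaz3, Tssk6 and Akap4, with means of 3.40 to 15.8 FPKM. Among the members below the minimum, Hmgb4 had 9 and 5 counts, Odf1 6.43 and 6.55, and Smcp 10 and 0.

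**Figure D3:**
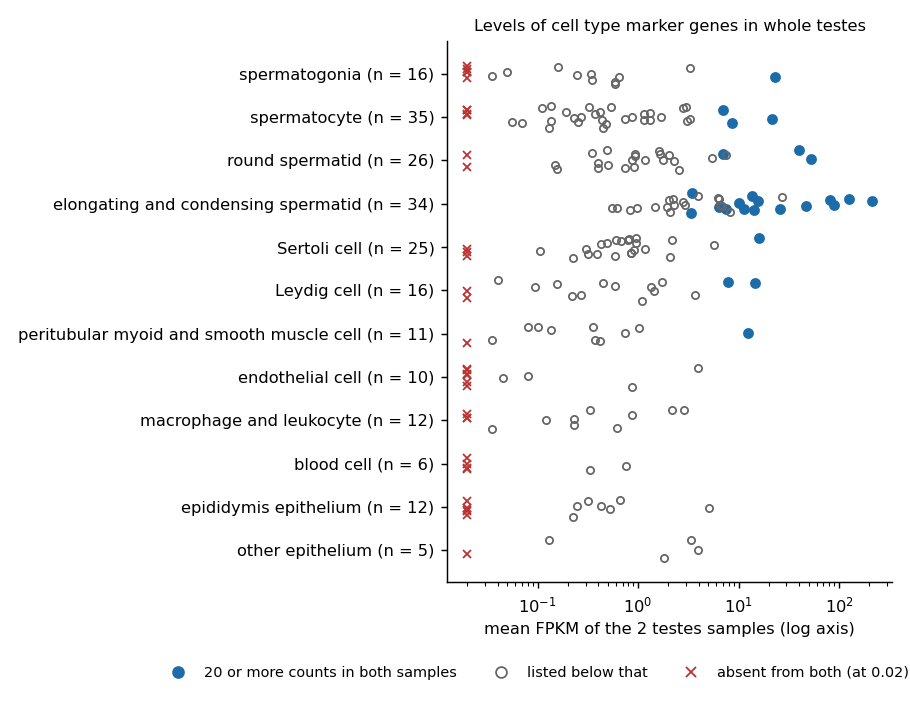
Mean FPKM of the 2 testes samples (log axis) for each gene of the cell type lists, with genes kept in blue, genes listed below the minimum as open circles and genes absent from both tables as crosses drawn at 0.02. The elongating spermatid list reaches from 0.545 to 214 FPKM with 15 genes kept, and the endothelial, macrophage, blood, epididymis and other epithelial lists have none.

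Somatic lists had a few genes kept each or none, beside 12.9% of all listed genes. For Leydig genes the kept share of listed genes was 14.3%, for myoid genes 10%, and for Sertoli genes 4.55%. Of 25 Sertoli genes 22 were listed and 1 was kept, Dhh, the hedgehog ligand of these cells, with 93 and 111 counts (16.1 ± 3.10 FPKM; SD, n = 2). Sox9, Fshr and Shbg were absent from both tables, and Clu had 10 and 10 counts. Of 16 Leydig genes 14 were listed and 2 were kept: Star, which brings cholesterol into the mitochondrion, with 168 and 148 counts (14.5 ± 0.311 FPKM), and Fdx1, its electron carrier for steroid synthesis, with 30 and 22. Cyp17a1 had 4 and 10 counts and Insl3 8 and 3, while Lhcgr and Cyb5a were absent. Of 11 myoid and smooth muscle genes, Tagln alone was kept, with 56 and 50 counts, and Acta2 had 3 and 2. No endothelial gene of 10 and no macrophage gene of 12 was kept. Cd34 had 40 and 16 counts, and Pecam1, Cdh5, Adgre1 and Ptprc were absent.

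Lists for blood, epididymis and other epithelium had no gene kept, beside 12.9% of all listed genes. With 2, 7 and 4 genes listed, this says little. Their genes need not be confined to cells from outside the testis. Blood genes summed to 5 and 4 counts over 6 genes, with Alas2 at 5 and 3 and both alpha globin genes absent. Of 12 genes of the epididymis 7 were listed and none was kept, and they summed to 12 and 28 counts, of which Cst8 had 9 and 9. The 5 genes of other epithelium summed to 36 and 53 counts, with Epcam at 17 and 26 and Cdh1 absent.

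Programmes of the maturing germ cell differed in how many of their genes were kept, beside 12.9% of all listed genes. Of 32 flagellar genes all were listed and 10 kept (31.2%), with 0.346% and 0.401% of the RefSeq mRNA counts. Spef1, a microtubule-bundling protein of the axoneme, led them with 441 and 377 counts (67.1 ± 2.82 FPKM; SD, n = 2), ahead of Odf2. The dynein heavy chain genes Dnah8 and Dnah17 had 114 and 112, and 57 and 33 counts. Of 22 genes for RNA binding and translational storage 3 were kept (13.6%). Ybx2, the germ-cell Y-box protein that holds stored messengers, had 170 and 188 counts, Ybx3 had 122 and 352, and Larp1 had 40 and 73. Ybx2 was steady between the samples, and Ybx3 was among the genes that moved most.

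Of 31 chaperone genes 12 were kept (38.7%), and their list held 0.248% of the RefSeq mRNA counts in replicate 1 and 0.469% in replicate 2, a mean of 0.358% ± 0.156 (SD, n = 2). Hsp90aa1, the inducible HSP90 and the form most abundant in germ cells, had 106 and 406 counts. Hsp90ab1 had 26 and 85, and Hsp90b1, the form of the endoplasmic reticulum, 33 and 88. Tcp1, a subunit of the cytosolic chaperonin, had 172 and 288. Hspa8 moved the other way, from 78 to 37.8. The HSP90 genes thus accounted for much of the gap between the samples.

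Of 29 genes for glycolysis and lactate 27 were listed and 8 were kept (29.6% of those listed), and their list held 0.613% and 0.865% of the RefSeq mRNA counts. Eno1 made up most of this, and its estimated count was not whole in replicate 1, which marks fragments that were shared with another transcript. Gapdh had 223 and 119 counts (56.3 and 33.2 FPKM), Hk1 43 and 106, Pkm 54.7 and 53.0, and Eno4, the enolase of the sperm tail, 60 and 52. Slc2a3, a glucose transporter of germ cells, had 22 and 35 counts, and Pfkp 22 and 22. Pgk2, the germ-cell phosphoglycerate kinase, had 11 and 14 counts, and Gapdhs, the sperm form of Gapdh, had 15 and 8. Ldhc was the highest of the germ-cell forms in this list, at 11.8 and 31.6 FPKM. It was near Gapdh in replicate 2, and Pgk2 and Gapdhs lay below Gapdh in both samples.

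Many enzymes have a germ-cell copy beside the form of other tissues, often to stand in for an X-linked gene. In 27 pairs a germ-cell form was set beside a general form. Slc2a3 and Hsp90aa1 were set on the germ-cell side, though neither is confined to germ cells. Both FPKM values of the germ-cell form lay above both values of the general form in 13 pairs. They lay below both in 6, and the ranges overlapped in 8. Most of these genes had few counts: 9 pairs had at least 1 gene kept, and only they are described. Among these 9, the range of the germ-cell form lay above that of the general form in 3. Ldhc had 11.8 and 31.6 FPKM against 4.19 and 2.19 for Ldha, Slc2a3 had 1.95 and 3.42 against 0.28 and 0.45 for Slc2a1, and Ybx2 had 38.9 and 47.5 against 29.2 and 38.0 for Ybx1. In the first 2 pairs the ranges lay further apart than for Ybx2 and Ybx1, although Ldhc itself ran from 11.8 to 31.6 FPKM between the samples. For Ybx2 the lower value exceeded the higher value of Ybx1 by under 1 FPKM. The general form was higher in 4 of the 9: Gapdh over Gapdhs (56.3 and 33.2 against 3.67 and 2.17), Tuba1a over Tuba3a (12.8 and 16.3 against 6.35 and 3.09), Calr over Calr3 (6.60 and 9.70 against 1.07 and 1.25), and Rpl10 over Rpl10l (26.1 and 14.4 against 5.35 and 0.79). The ranges of the remaining 2 overlapped, for Hspa2 with Hspa8 and for Hsp90aa1 with Hsp90ab1, although Hsp90aa1 exceeded Hsp90ab1 within each sample. Copies this similar can share fragments. At least 1 transcript estimate was not whole for Gapdh, Gapdhs, Tuba1a, Tuba3a, Hspa2, Hspa8, Ybx1 and Calr3. Such a value can also come from sharing between transcripts of the same gene. The gene sums of Gapdhs (15 and 8 counts), Hspa2 (49 and 66) and Calr3 (5 and 5) were whole. Sharing between the copies of a pair was not tested.

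The X chromosome is silenced during male meiosis and stays largely repressed in spermatids. In these samples X-linked genes were rare among the kept genes. Of 400 listed X-linked genes 8 were kept (2%), against 1783 of 13392 listed autosomal genes (13.3%), with a range of 11.9% to 16.3% over the 19 autosomes. X-linked genes held 0.503% and 0.488% of the counts, a mean of 0.495% ± 0.0105 (SD, n = 2), while 4.30% of annotated RefSeq mRNA genes are X-linked. Mospd1 led them with 206 and 311 counts. Irs4, an adaptor of insulin signalling, had 98 and 109 counts, and the ribosomal protein gene Rpl10 had 56 and 28. The others were Fgd1 (21 and 36), Morf4l2 (32 and 22), Akap4, the main protein of the fibrous sheath (23 and 29), C330007P06Rik (29 and 23) and Frmd7 (22 and 27). Foxo4 came close, with 51 and 18. No Y-linked gene of 21 listed was kept. The multicopy Sly had 5.62 and 14.8 counts, and Eif2s3y had 1 and 11.

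**Figure D4:**
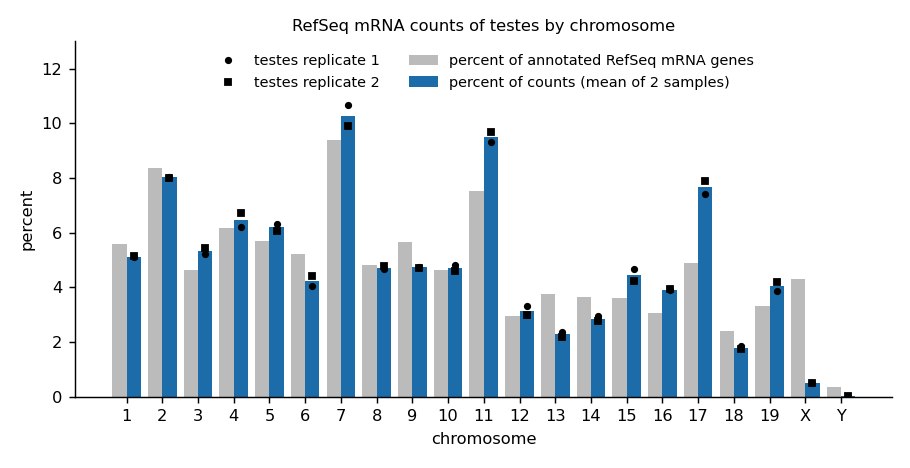
Percent of annotated RefSeq mRNA genes (grey) and percent of RefSeq mRNA counts (blue, mean of the 2 testes samples, with each sample as a point) on each chromosome. The X chromosome has 4.30% of genes and 0.495% of counts, and no autosome shows such a gap.

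The testes samples agreed over the kept genes, with more spread than counting alone gives. Across the 1799 genes, Pearson r of log2(ppm of the RefSeq mRNA counts + 1) was 0.901 and Spearman rho 0.799. These are across genes, which are not independent replicates. The median absolute log2 ratio was 0.36, and 1597 genes (88.8%) lay within 2-fold. The exact binomial 95% interval left out the ratio of the totals for 662 genes (36.8%), of which 323 were higher in replicate 1 and 339 in replicate 2. Chi-square per degree of freedom was 9.13, where counting error alone gives about 1. This compares the libraries and covers counting error only.

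The share of genes beyond counting error was larger for genes with more counts. It was 20.6% at a mean count of 20 to 50, 42.6% at 50 to 100, 53.7% at 100 to 500 and 85.5% at 500 or more. The median absolute log2 ratio stayed between 0.32 and 0.43 in these classes. Of the 83 genes with a mean of 500 or more, 67 were higher in replicate 2. Beyond 2-fold, 148 genes were higher in replicate 1 and 54 in replicate 2.

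The 10 genes that moved most were taken from the 480 kept genes with a mean count of 100 or more. Of these, 3 were higher in replicate 2: Hsp90aa1 (106 and 406 counts, log2 ratio 1.97), Ybx3 (122 and 352, 1.56) and Dmrtb1, a regulator of entry into meiosis (58 and 157, 1.47). The other 7 were higher in replicate 1. Zfp820, a zinc finger gene, had 379 and 91 counts (log2 ratio -2.02), and Tnfrsf22, a decoy receptor, had 1024 and 341 (-1.55). Muc5b, a gel-forming mucin of epithelia, had 281 and 94, and Ppp2r5a, a regulatory subunit of phosphatase PP2A, had 372 and 126. Gm13242 (220 and 72.4), Rex2 (215 and 74.9) and Gm5114 (216 and 76.6) completed them. A transcript estimate of each of Gm13242, Rex2, Gm5114, Tnfrsf22, Ppp2r5a and Ybx3 was not whole, so part of its fragments was shared with other transcripts. For Ybx3 the sum over its 2 transcripts was whole in both samples. Over all kept genes, 36.0% had such a transcript estimate, against 20.4% of the genes not kept.

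**Figure D5:**
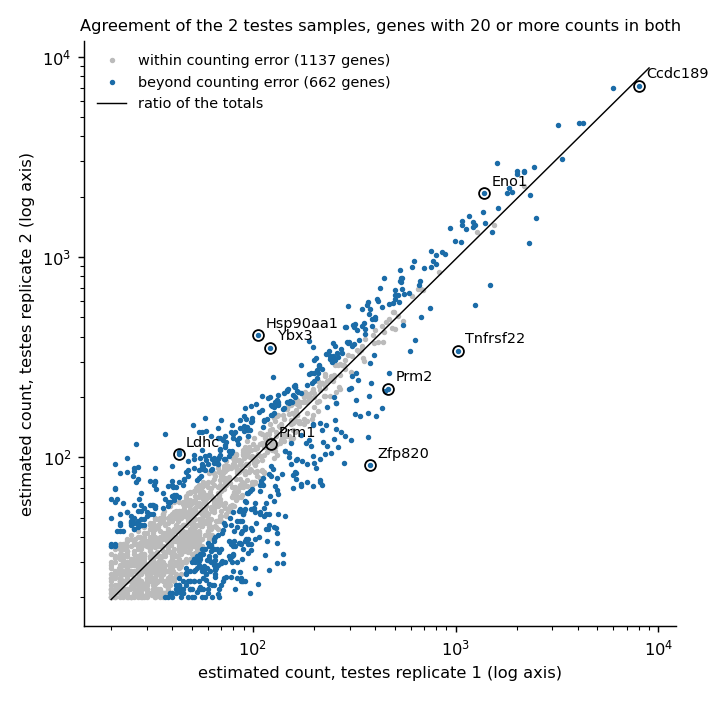
Estimated counts of the 1799 kept genes in testes replicate 1 (horizontal, log axis) and replicate 2 (vertical, log axis), with genes beyond counting error in blue and the ratio of the totals as a line. Hsp90aa1 and Ybx3 lie above the line and Zfp820 and Tnfrsf22 below it, while Prm1 lies on it.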

How the data were processed

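Testes replicates 1 and 2 were taken by their titles. The authors removed adaptors and poor reads and mapped the rest with SOAPaligner/SOAP2, and the submitters' processing notes name HISAT and mm10. Each deposited table lists transcripts with the authors' estimated count, unscaled for depth, and FPKM. The counting program, its version and its strand setting are not given in the sources used here. RefSeq mRNA rows were summed per gene, and absent rows were taken as 0. Of 15450 transcripts, 15341 (99.3%) matched GRCm38.p6 by accession. Genes were named by rule: the 25 highest shares and 10 highest FPKM, the 10 largest replicate ratios at a mean count of 100 or more, up to 4 genes per list, pairs with a kept gene, the leading sex-linked genes, and those at the minimum, with others chosen after their values were seen. Members and lists were chosen with earlier results of these data known. Intervals cover counting error only, since fragments copied by PCR are not independent. The replicate comparison was tested on simulated counts. Python 3.11.15, numpy 2.4.6, pandas 2.3.3 and scipy 1.17.1 were used.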

Additional observations from a re-analysis of the deposited data

Results flagged for a closer look

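Counts outside the RefSeq mRNA were seen in the predicted mRNA that the authors assembled, which no comparison above used. They held 2.39% of all counts in testes replicate 1 and 1.92% in replicate 2. Of 1607 such transcripts, 899 were listed in both samples and 243 had 20 or more counts in both. The highest had 2836 and 3701 counts over a length of 2911 bases, a count within the range of the 10 most abundant RefSeq genes. The tables give no position or gene name for them.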

How the results depend on the processing

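The number of kept genes was 3057 with a minimum count of 10 and 791 with 50, and 2274 with a mean of 20. Using 1 sample alone gave 2103 to 2461. The share of the 10 most abundant genes was 15.0% by FPKM, 15.5% of the counts of kept genes and 10.6% with predicted mRNA in the denominator, and 11.9% to 13.4% in 1 sample alone. Pearson r was 0.922 at a minimum of 50, 0.742 over all genes with a count in either sample and 0.933 on log2(FPKM + 1). At a minimum of 50, 368 genes (46.5% of 791) lay beyond counting error, and scaling by the median ratio gave 665. The germ-cell to somatic ratio was 4.75 without length, 15.3 over kept members and 8.94 without Prm2 and Dhh, and 9.18 to 9.72 in 1 sample alone. The X-linked share was 0.209% of the counts of kept genes and 0.447% of their number, and 0.488% to 0.503% in 1 sample alone. The share of kept genes with an opposite-strand partner, added after the data were seen, was 28.2% at a minimum of 10, 39.9% at 50, 32.5% over whole estimates, and 30.3% to 31.6% in 1 sample alone. Replicate agreement and counts beyond counting error need both samples and are not defined for 1 alone. No paired analysis was possible because the results come from 1 group and no test between groups. Depth limits the low genes, as the median listed gene had 4 to 5 counts. By counting error alone, absence of a marker here means under 9.30 to 9.55 ppm of the RefSeq mRNA counts. This limit does not cover fragments that the counting may have given to other entries.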

Other observations

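Gene families outside the lists, chosen after the data were seen, varied in how many of their listed members were kept, against 12.9% of all listed genes. Of 77 cytosolic ribosomal protein genes 11 were kept, with 0.427% of the RefSeq mRNA counts in replicate 1 and 0.295% in replicate 2. Of 62 mitochondrial ribosomal protein genes 4 were kept, of 41 proteasome genes 2, and of 38 complex I genes 1, Ndufa13. Mrps25 and Ndufa13 thus stood far above the median of the listed members of their own complexes, 2.5 and 1.75 counts per gene. Both have a protein-coding gene on the opposite strand, and whether this bears on their counts was not tested.

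Olfactory receptor genes, which are known from sperm and testis as well as from the nose, had 227 of 1104 annotated members listed and 12 kept, led by Olfr128 and Olfr733. They held 0.462% and 0.374% of the RefSeq mRNA counts. Potassium channel genes had 12 of 69 listed members kept, with Kcnk10, Kcnmb4 and Kcna2 the highest. Of 27 Spata genes, named for spermatogenesis, 4 were kept (14.8%), beside 12.9% of all listed genes.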
